A study of Homo sapiens with 36 samples.

Results

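The comparison described here is the effect of KDM6A and KDM6B knockdown on the transcriptome of cisplatin-treated 2102EP-C1 cells. It rests on 6 of the 36 RNA-seq samples of the series, chosen by their labels: 3 samples labelled 2102EP-C1.sh6A+6B Cisplatin and 3 labelled 2102EP-C1.pLKO1 Cisplatin. 2102EP is a human embryonal carcinoma line, the stem cell component of nonseminomatous testicular germ cell tumors, and 2102EP-C1 is a single clone derived from it that is resistant to cisplatin. The sh6A+6B cells carry a pair of lentiviral short hairpin RNAs, 1 against KDM6A and 1 against KDM6B, and the control cells carry the empty vector pLKO.1, which has no hairpin of its own. Cells of both groups received 0.5 µM cisplatin for 6 h and were harvested for RNA 24 h after treatment. The same table holds 6 samples without cisplatin, 3 of pLKO.1 and 3 of sh6A+6B, which give the knockdown effect without cisplatin in samples that the main comparison does not use. The series calls its samples biological triplicates but does not say how the cultures were kept apart, and p-values here measure the spread between these samples.

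KDM6A (UTX) and KDM6B (JMJD3) remove methyl groups from lysine 27 of histone H3. The trimethylated form of this residue, H3K27me3, is written by the methyltransferase EZH2 within polycomb repressive complex 2 (PRC2) and marks silent genes, in stem cells above all the promoters of developmental regulators such as the HOX genes. KDM6A is also a subunit of the KMT2C and KMT2D methyltransferase complexes, which act at enhancers. Cisplatin crosslinks DNA and activates p53, which is usually intact in germ cell tumors. The study asked how loss of the demethylases changes the response of resistant cells to the drug.

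Values were log2 CPM (read counts per 1e6 reads of the sample on a log2 scale, with a small constant added to each count, so that fold changes of low genes are understated). Each of the 6 samples held 79.4 to 100.9 M counted reads. Genes were called raised or lowered at more than 1.3-fold with an adjusted p under 0.05, taken over all 16459 genes in limma-trend with all 12 samples of the table. The 12 embryonal carcinoma markers, POU5F1, NANOG, SOX2 and LIN28A among them, were all over 1 CPM in every sample. AFP, ALB, APOA1 and TTR of yolk sac endoderm, CGA and CGB3 of trophoblast, and SOX1, PAX6, COL3A1 and DCN of other lineages were not among the genes of the table. Other members of these lists were expressed. Over 1 CPM in every sample were 4 of 12 listed markers of yolk sac endoderm and 4 of 13 of trophoblast. So were 5 of 13 of neural tissue and ectoderm and 7 of 13 of mesoderm and stroma. The summed level of the embryonal carcinoma markers was 11768 to 11851 CPM in the controls with cisplatin and 10850 to 10914 CPM in the knockdown. Of these 12 markers only DNMT3B was called, as lowered (-0.47), and its fall is part of the lower sum. The 12 markers had 6 differences above 0 and 6 below (median -0.04). The sum for the 8 measured neural and ectoderm markers was 582.7 to 596.1 and 375.0 to 398.6 CPM, with NES and ELAVL3 lowered. The sums of the other marker lists are given with the limits of the data, and their part in the results was not tested. In bulk RNA fewer cells of a type and less RNA per cell cannot be told apart.

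Both targets were lower in the knockdown cells. KDM6A (NCBI Gene 7403; GRCh38 chrX:44873188-45112779) had log2 CPM of 7.27, 7.27 and 7.26 in pLKO.1 with cisplatin and 6.28, 6.27 and 6.38 in sh6A+6B with cisplatin, a log2 fold change of -0.96 ± 0.03 (SE, adjusted p = 3.14e-18). KDM6B (NCBI Gene 23135; chr17:7834217-7854796) was at 4.72, 4.67 and 4.68 in the controls and 3.38, 3.43 and 3.54 in the knockdown, a difference of -1.24 ± 0.05 (SE, adjusted p = 2.12e-16). The groups did not overlap for either gene, and the levels were 1.94-fold and 2.37-fold lower. In untreated cells the same differences were -1.01 and -1.01 on the log2 scale, and the difference between the effects with and without cisplatin (0.06 and -0.23) was under 1.3-fold for both.

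**Figure D1:**
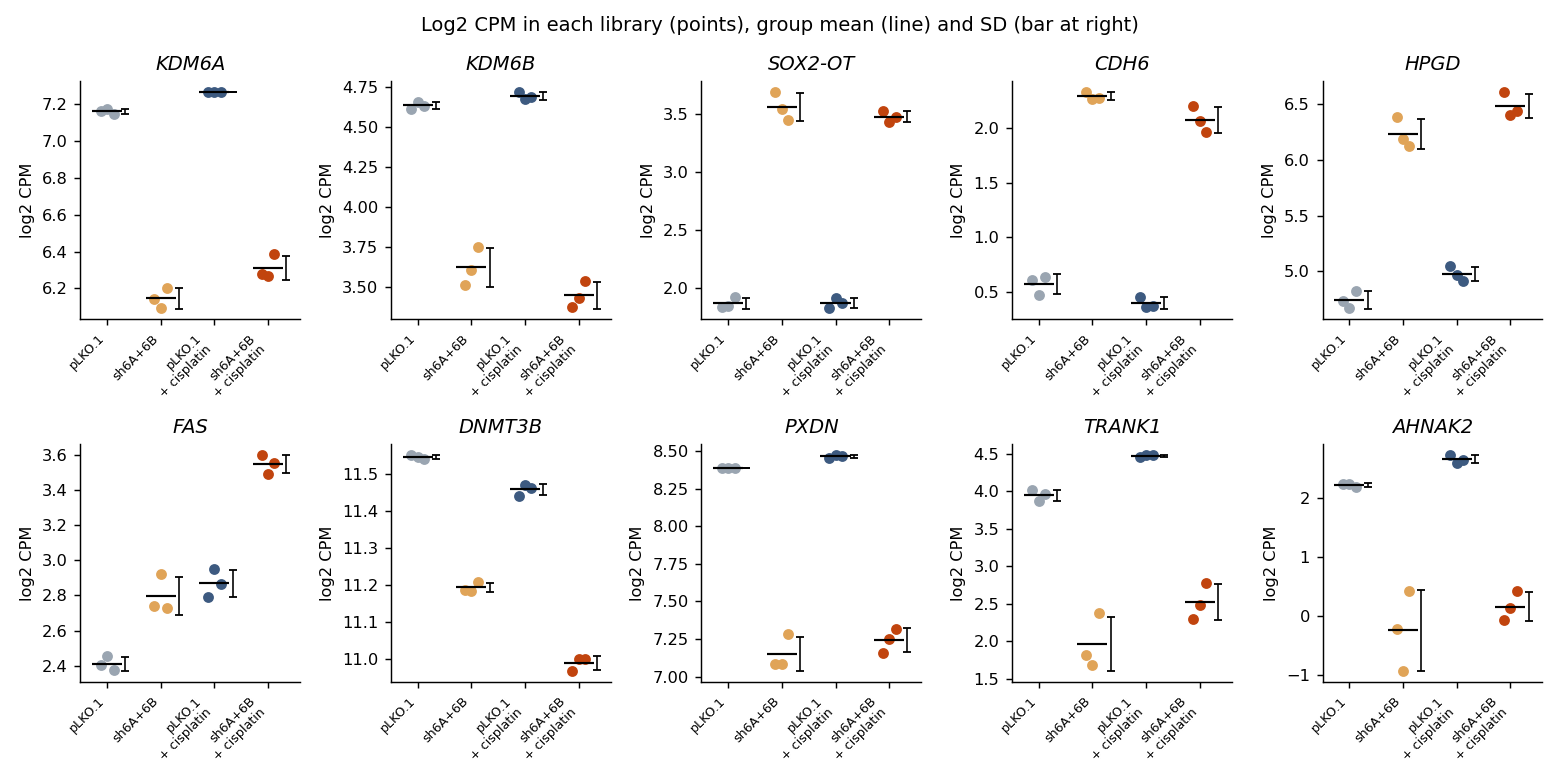
Log2 CPM (vertical axis) of 10 genes in each of the 12 samples, with 3 samples for each of pLKO.1, sh6A+6B, pLKO.1 with cisplatin and sh6A+6B with cisplatin, where the line is the group mean and the bar its SD, each panel with its own axis, which does not start at 0. In the cisplatin arms the 3 knockdown samples lie apart from the 3 controls for every gene shown, above them for SOX2-OT, CDH6, HPGD and FAS and below them for the other 6.

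Across the transcriptome 1053 genes were raised (6.40% of those tested) and 1444 were lowered (8.77%) by the knockdown within cisplatin. The median log2 fold change of called genes was 0.51 in size in either direction, and 90 raised and 36 lowered genes changed by more than 2-fold. Among genes with a mean log2 CPM of at least 1, large rises were those of CDH6, SOX2-OT, TM4SF18 and HPGD, and the largest falls were those of AHNAK2, TRANK1, MUC16, KDM6B and PXDN. Across all genes the median difference was 0.0005. Of the 1053 raised genes, 1022 had 3 knockdown values above all 3 control values, and of the 1444 lowered genes 1413 had them below. The genes were called on these same samples, so this separation follows largely from the calling and adds no separate support. No share over all genes is given for it.

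The same knockdown without cisplatin gives a measurement in other samples. In untreated cells 1044 genes were raised (6.34%) and 945 lowered (5.74%) by the same knockdown. Of these, 616 were raised in both comparisons, which is 58.5% of the genes raised with cisplatin and 59.0% of those raised without it, and 629 were lowered in both, or 43.6% and 66.6%. The other calls that both comparisons made, 3 genes, were in opposite directions. The comparisons have no sample in common. Of the genes raised with cisplatin, 95.5% had a positive difference in untreated cells, with a median there of 0.46, and of the genes lowered with cisplatin 92.0% had a negative difference, with a median of -0.34.

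**Figure D2:**
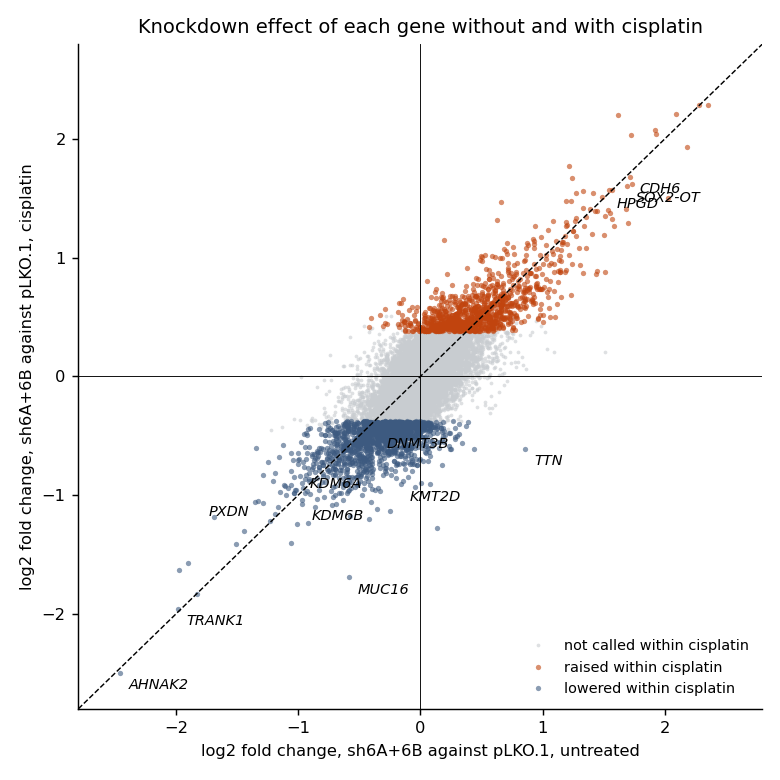
Log2 fold change of sh6A+6B against pLKO.1 for each gene in untreated cells (horizontal axis) and in cisplatin-treated cells (vertical axis), with genes raised or lowered within cisplatin in color and the diagonal of equal effect dashed. SOX2-OT, CDH6, TRANK1 and AHNAK2 lie near the diagonal, whereas TTN was raised in untreated cells (0.86) and lowered with cisplatin (-0.61), and MUC16 and KMT2D lie well under the diagonal.

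HOX genes, which set positional identity along the body axis and are classic targets of polycomb repression, were the list with the largest share of raised members. Of 14 measured HOX genes, 9 were raised and 1 was lowered, with a list median of 0.51 beside 0.0005 for all genes. HOXA4 (NCBI Gene 3201; chr7:27128525-27130757) rose from -2.55, -3.42 and -3.23 to -1.17, -0.93 and -0.87 log2 CPM, a change of 2.07 ± 0.26 (SE, adjusted p = 1.87e-07). Every knockdown sample was above every control, but the controls were near the detection limit, the lowest with 6 reads. HOXC10 rose from -2.28, -2.53 and -2.06 to -1.28, -1.24 and -1.29 (1.02 ± 0.21 SE, adjusted p = 1.62e-04), and HOXA10 from -0.22, -0.34 and -0.22 to 0.37, 0.40 and 0.63 (0.73 ± 0.13 SE, adjusted p = 2.65e-05). The groups did not overlap for either. HOXD9, HOXB13, HOXA7, HOXB3 and HOXD13 rose by between 0.43 and 0.76. HOXB1 was the exception and fell from 3.85, 3.83 and 3.86 to 3.20, 3.25 and 3.30, a change of -0.60 ± 0.05 (SE, adjusted p = 1.26e-09). HOXA13, HOXC13, HOXB2 and HOXD1 were not called, with values from -0.15 to 0.20. Several HOX genes overlap antisense transcripts, and since the strand setting of the read count was not given in the sources used here, their reads cannot be told apart.

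**Figure D3:**
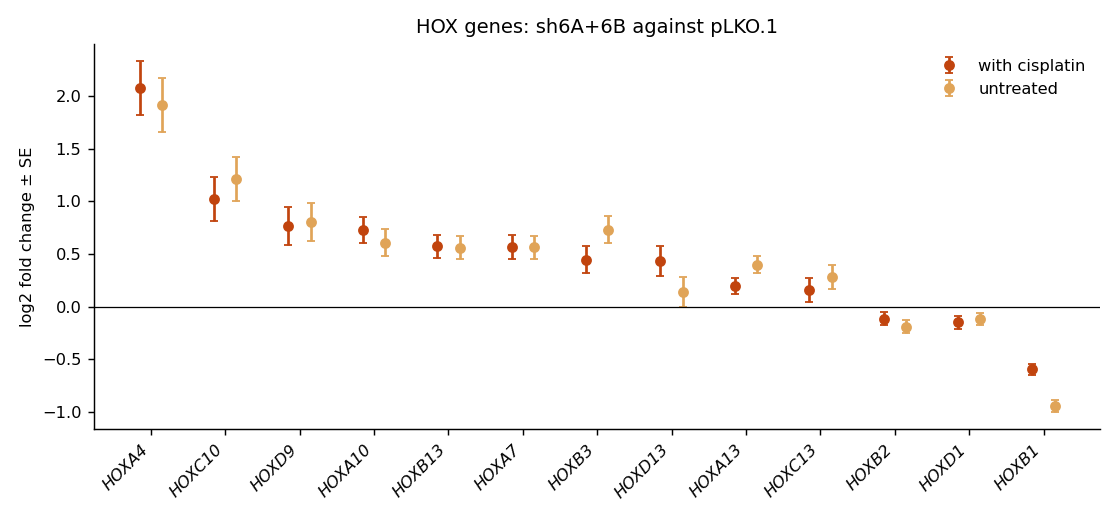
Log2 fold change ± SE of sh6A+6B against pLKO.1 for 13 HOX genes, with cisplatin and untreated. With cisplatin HOXA4 lies above 2, HOXB1 lies at -0.60, and the points with and without cisplatin are close for most genes. None was called different between the conditions.

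Other lineage regulators were also raised. Of 44 measured developmental regulators known to be bound by polycomb in stem cells, 14 were raised and 3 lowered, with a median of 0.17. ZIC1, a zinc finger factor of the dorsal neural tube, rose from -1.99, -2.10 and -1.92 to 0.35, 0.38 and 0.12 log2 CPM (2.29 ± 0.21 SE, adjusted p = 1.45e-09). HHEX, a homeobox factor of early endoderm, rose by 2.04 ± 0.25 (SE, adjusted p = 1.56e-07), with controls at -1.75, -2.17 and -3.07 and knockdown samples at -0.21, -0.59 and -0.06. In both genes the groups were far apart although the controls were low. SOX21 rose by 1.40, and EOMES and TBXT, T-box genes of mesendoderm, by 0.90 and 0.62. OTX1, TBX1 and POU3F2 fell by 0.88, 0.58 and 0.43. SOX21 lies on chromosome 13, where 17.3% of 283 genes were raised and 2.47% lowered.

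SOX2-OT, a long noncoding RNA that spans the SOX2 locus, rose by 1.60 ± 0.06 (SE, adjusted p = 7.81e-17), from 1.83, 1.91 and 1.87 to 3.53, 3.43 and 3.47. SOX2 itself, a core pluripotency factor, differed by 0.07 ± 0.03 (SE, adjusted p = 0.0896). Among 33 pluripotency factors 2 were raised and 3 lowered, beside 6.40% and 8.77% of all genes tested. POU5F1 (OCT4) was at 9.26, 9.30 and 9.30 in the controls and 9.29, 9.31 and 9.27 in the knockdown, which overlapped fully. TRIM71, TFCP2L1 and UTF1 fell by 0.48 to 0.51, and ZFP42 (REX1) and DPPA5 rose by 0.50 and 0.48.

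The promoters of raised genes carried fewer CpG dinucleotides than those of the genes tested. CpG-rich promoters are those at which polycomb complexes are recruited, and CpG-poor promoters are more often tissue restricted. Over the 250 bases before the start site in RefSeq (GRCh38.p14), where 1 start is listed for each gene and for some genes lies inside the annotated span, matched for 609 of 759 raised coding genes (80.2%) and 11345 of 13933 coding genes tested (81.4%), the median number of CpG was 16 in raised genes and 21 in all. Promoters with fewer than 5 CpG were 19.7% of the raised and 8.61% of all. For lowered genes only 75.9% of promoters were matched, and no value is given. The E-box word CACGTG was present in 8.37% of raised and 8.66% of all promoters, and the p53 half-site consensus in 5.91% and 4.59%. Both words read the same on either strand. These shares are given with no test. The transcripts of raised genes were also lower in GC content, with a median of 44.75%, beside 47.94% for genes not called and 55.33% for lowered genes. Promoters were not counted again with the trend in GC content removed, so its part in these values was not tested. The promoters of 4 strongly raised genes are shown for their range, ZIC1 and HHEX with dense CpG and TM4SF18 and SOX2-OT with few. All 4 stretches adjoin the 5′ end of the annotated gene. CpG dinucleotides are in capitals, and each sequence runs 5′ to 3′ on the strand of the gene and ends at the base before the start site.
ZIC1 (chr3:147409115-147409364, + strand, 23 CpG): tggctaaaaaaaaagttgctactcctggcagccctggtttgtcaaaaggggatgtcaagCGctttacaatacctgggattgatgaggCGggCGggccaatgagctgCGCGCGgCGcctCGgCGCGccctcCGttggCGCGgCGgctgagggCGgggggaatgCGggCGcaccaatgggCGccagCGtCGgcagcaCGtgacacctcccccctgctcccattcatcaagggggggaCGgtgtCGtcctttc
HHEX (chr10:92689705-92689954, + strand, 38 CpG): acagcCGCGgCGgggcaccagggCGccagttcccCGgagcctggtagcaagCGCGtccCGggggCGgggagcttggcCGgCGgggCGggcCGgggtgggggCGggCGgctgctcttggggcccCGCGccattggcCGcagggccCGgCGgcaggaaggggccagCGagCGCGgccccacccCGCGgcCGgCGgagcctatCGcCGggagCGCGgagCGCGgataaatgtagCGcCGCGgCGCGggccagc
TM4SF18 (chr3:149333637-149333886, - strand, 2 CpG): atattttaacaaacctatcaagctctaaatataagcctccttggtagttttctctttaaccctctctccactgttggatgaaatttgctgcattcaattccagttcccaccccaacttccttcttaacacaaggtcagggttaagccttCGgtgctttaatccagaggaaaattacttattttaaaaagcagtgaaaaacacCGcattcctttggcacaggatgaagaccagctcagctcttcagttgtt
SOX2-OT (chr3:181056430-181056679, + strand, 2 CpG): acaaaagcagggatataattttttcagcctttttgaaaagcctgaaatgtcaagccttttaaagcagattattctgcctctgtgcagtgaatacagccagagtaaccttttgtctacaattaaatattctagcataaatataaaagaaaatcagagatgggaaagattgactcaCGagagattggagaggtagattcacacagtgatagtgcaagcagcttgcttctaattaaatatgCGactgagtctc

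TM4SF18, a tetraspanin-like membrane protein, rose from 0.71, 0.73 and 0.79 to 2.32, 2.18 and 2.38 (1.55 ± 0.09 SE, adjusted p = 4.55e-13), and PTPRR, a receptor tyrosine phosphatase, from 1.43, 1.3 and 1.37 to 2.68, 2.58 and 2.64 (1.27 ± 0.07 SE, adjusted p = 2.01e-13). HPGD, which degrades prostaglandins, rose from 5.05, 4.96 and 4.92 to 6.61, 6.41 and 6.44, a 2.85-fold change (1.51 ± 0.05 SE, adjusted p = 5.55e-17). GAD1, the enzyme that makes GABA, rose by 1.35, PCSK1, a prohormone convertase, by 1.34, SKAP2, an adaptor protein of integrin signaling encoded beside the HOXA cluster, by 1.39, HLA-DQB1, a class II antigen presenting chain whose reads may be shared with close paralogs, by 1.41, and PLAGL1, an imprinted zinc finger factor, by 1.27. All of these also rose in untreated cells, by 1.51, 1.35, 1.44, 1.39 and 1.58 in the same order.

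Adhesion and mesenchymal genes were among the largest rises. Of 32 classical cadherins and genes of epithelial-mesenchymal transition, 7 were raised and 2 lowered (median 0.11). CDH6 (K-cadherin) rose from 0.46, 0.36 and 0.37 to 2.20, 2.06 and 1.96 log2 CPM, a change of 1.68 ± 0.08 (SE, adjusted p = 1.51e-14) or 3.2-fold. TWIST1, a transcription factor of mesenchyme, rose by 1.19 ± 0.12 (SE, adjusted p = 5.96e-09) and VIM, its intermediate filament vimentin, by 0.62 ± 0.02 (SE, adjusted p = 5.62e-16). CDH7, CDH8 and CDH12 rose by 0.45 to 0.58 and the collagenase MMP2 by 0.48, while CDH4 fell by 0.91 and MMP9 by 0.55. CDH1 (E-cadherin) and EPCAM, which hold epithelial cells together, differed by -0.32 and 0.11, short of the limit.

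Part of the hypoxia response was raised. Of 43 measured members of the list, which holds targets of HIF1 and enzymes of glycolysis, 8 were raised and 0 lowered, with a median of 0.20 and 30 values above 0. ADM (adrenomedullin) rose from 3.17, 3.18 and 3.28 to 4.41, 4.29 and 4.33 (1.13 ± 0.04 SE, adjusted p = 1.49e-16), and ANKRD37, LOX, BHLHE40, PDK1 and SLC2A1, the glucose transporter GLUT1, rose by 1.00, 0.95, 0.71, 0.70 and 0.65. HIF1A itself differed by -0.04, which did not pass the test. In untreated cells 10 members of the list were raised and 1 was lowered.

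Among the falls, AHNAK2, a giant scaffold protein, showed the largest. Its log2 CPM was 2.73, 2.60 and 2.64 in the controls and -0.08, 0.14 and 0.42 in the knockdown, a change of -2.50 ± 0.19 (SE, adjusted p = 5.06e-11) or 5.64-fold. TRANK1 fell from 4.46, 4.48 and 4.49 to 2.30, 2.48 and 2.78 (-1.96 ± 0.11 SE, adjusted p = 3.87e-13), and PXDN (peroxidasin), which crosslinks collagen IV of basement membranes, from 8.45, 8.47 and 8.47 to 7.16, 7.25 and 7.32 (-1.22 ± 0.04 SE, adjusted p = 5.48e-18). The groups were well apart in all 3, and the falls in untreated cells were -2.46, -1.99 and -1.23. The neuronal pentraxin receptor NPTXR, the potassium channel KCNK12 and the zinc finger repressor ZNF652 fell by 1.08, 1.16 and 1.01, again with like values in untreated cells (-0.97, -1.19 and -0.79).

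Transcript length moved with the comparison, and this bears on several of the groups that follow. Genes were ranked by the length of their canonical transcript (15220 genes of known length, GENCODE release 44). In the shortest decile, up to 1107 bases, the median knockdown effect within cisplatin was 0.12 on the log2 scale and 4.27% of genes were lowered. In the longest decile, from 7624 bases, the median was -0.17 and 22.7% were lowered. The corresponding medians in untreated cells were -0.04 and 0.03. All 3 pLKO.1 samples with cisplatin were shifted toward long transcripts, by 0.08 to 0.10 in the longest decile relative to the mean of the 12 samples, and all 3 sh6A+6B samples with cisplatin away from them, by -0.06 to -0.09. GC content moved with it as well, with a median effect of 0.08 in the lowest quintile and -0.11 in the highest, and it did so in untreated cells too (0.06 and -0.09). When the trend with length and GC content was removed from each sample, a step added after the data had been seen, 749 genes of known length were raised and 872 lowered. They included 614 of the 907 raised and 678 of the 1309 lowered genes of known length. The part that these trends play in the results was not tested. Of the lists above, the pluripotency factors had 1 raised and 1 lowered member with the trend removed, with TRIM71, TFCP2L1, UTF1 and DPPA5 no longer called, and the hypoxia list 9 raised and 0 lowered. The HOX, developmental and cadherin lists had the same counts as before. Counts with the trend removed stand beside those of the later lists whose counts it changed.

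**Figure D4:**
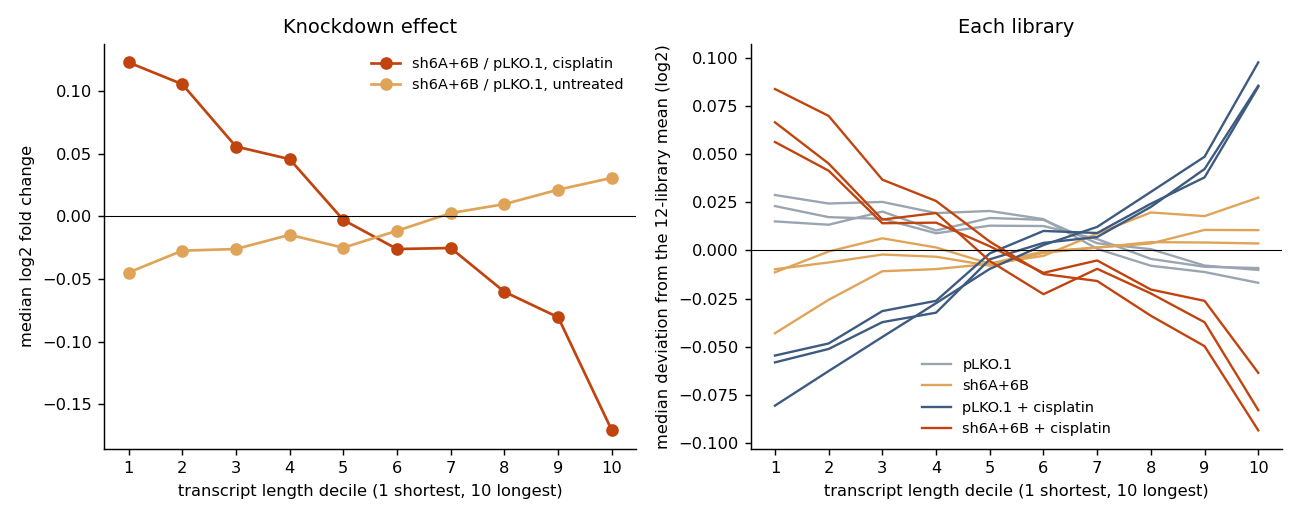
Left, median log2 fold change of sh6A+6B against pLKO.1 (vertical axis) by decile of transcript length (1522 genes each), with cisplatin and untreated. Right, median deviation of each of the 12 samples from the mean of all 12 in the same deciles, in which the cisplatin-treated pLKO.1 and sh6A+6B samples slope in opposite directions, from -0.05 to -0.08 up to 0.08 to 0.10 and from 0.06 to 0.08 down to -0.06 to -0.09, while the untreated samples stay within 0.05 of 0.

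Matrix genes were among those lowered. Of 51 measured collagens, laminins and related matrix genes 15 were lowered and 2 raised, with a median of -0.18 and a median transcript of 6394 bases. COL7A1, the anchoring fibril collagen, fell from 2.60, 2.53 and 2.70 to 1.55, 1.48 and 1.49 (-1.10 ± 0.07 SE, adjusted p = 1.91e-12), and COL26A1 from 5.27, 5.33 and 5.26 to 4.3, 4.38 and 4.40 (-0.93 ± 0.04 SE, adjusted p = 2.93e-16). COL8A2, COL5A3, HSPG2 (perlecan) and LAMA5 fell by 0.58 to 0.77, whereas COL11A1 and COL21A1 rose by 0.61 and 0.60. In untreated cells the same list had 9 raised and 5 lowered members. With the trend in length and GC content removed, 4 of the 51 were lowered and 5 raised within cisplatin, among them COL7A1 (-0.74), COL26A1 (-0.77) and COL11A1 (0.72).

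The clustered protocadherins, neuronal adhesion molecules that are encoded side by side on chromosome 5 and chosen by promoter, had 15 of 49 measured members lowered and none raised (median -0.24). PCDHB16 fell from 2.18, 2.06 and 2.23 to 1.12, 1.02 and 1.22 (-1.04 ± 0.09 SE, adjusted p = 1.91e-10), and PCDHGC5, PCDHGB3 and PCDHB13 fell by 0.83 to 0.97. Here 14 members were lowered with the trend removed. In untreated cells 6 were lowered and 1 raised. Members of the alpha and gamma clusters share their last exons, so that the division of reads between them is uncertain, whereas the PCDHB genes are single exons of their own.

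**Figure D5:**
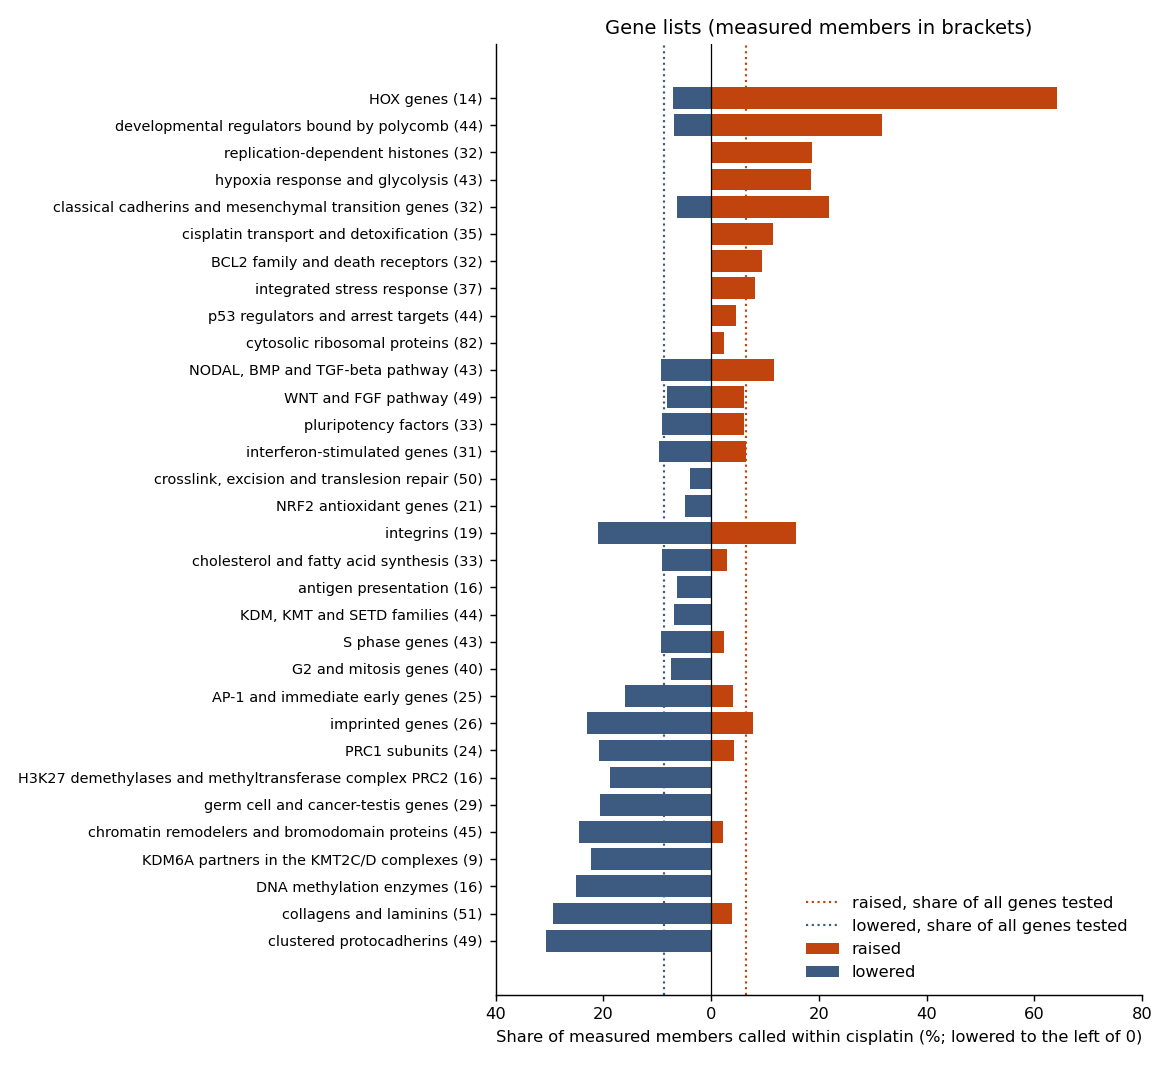
Share of measured members of each of the 32 gene lists called raised (right of 0) or lowered (left of 0) by the knockdown within cisplatin, and the dotted lines are the shares of all genes tested, 6.40% raised and 8.77% lowered. HOX genes and developmental regulators extend furthest to the right, and clustered protocadherins with collagens and laminins furthest to the left.

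The catalytic and core subunits of PRC2 did not pass the thresholds. Of 16 measured genes of the PRC2 list, KDM6A, KDM6B and LCOR were lowered and none was raised, and with the trend removed LCOR was not called. EZH2 was at 6.11, 6.12 and 6.14 in the controls and 6.06, 6.07 and 6.07 in the knockdown, a change of -0.06 ± 0.02 (SE, adjusted p = 0.0228), and EED, SUZ12, EZH1, RBBP4, RBBP7 and JARID2 were between -0.18 and 0.17. JARID2 was raised in untreated cells (0.40). AEBP2, MTF2, PHF1, PHF19, EPOP and LCORL lay between -0.30 and 0.01, none past the limits. Of 24 subunits of PRC1, the complex that reads the mark, YAF2 was raised (0.77 ± 0.11 SE, adjusted p = 1.04e-06) and CBX6, CBX7, BCORL1, MGA and PCGF3 were lowered by 0.40 to 0.56. With the trend removed 2 were raised and 0 lowered. BMI1 was not analysed here.

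Of 16 DNA methylation enzymes and readers 4 were lowered and none raised. DNMT3B (NCBI Gene 1789; chr20:32762385-32809356), the de novo methyltransferase that is typical of embryonal carcinoma, fell from 11.44, 11.47 and 11.46 to 10.97, 11 and 11 log2 CPM, a change of -0.47 ± 0.01 (SE, adjusted p = 4.12e-18) or 1.38-fold, with no overlap. In untreated cells it differed by -0.35, short of the limit on fold change. UHRF1, which brings DNMT1 to replicating DNA, fell from 5.39, 5.43 and 5.39 to 4.74, 4.72 and 4.81 (-0.64 ± 0.03 SE, adjusted p = 1.90e-15), and the demethylases TET3 and TET1 fell by 0.64 and 0.43. DNMT3L, DNMT1 and DNMT3A had differences of -0.37, -0.31 and -0.26, and HELLS of -0.16, all with adjusted p under 0.05 but under 1.3-fold. TDG, MBD4, UHRF2 and TET2 lay between 0.03 and 0.19, and MBD1, MBD2 and MBD3 between -0.18 and -0.08. With the trend removed UHRF1 (-0.54) and DNMT3L (-0.40) were lowered, while DNMT3B was at -0.36, just short of 1.3-fold.

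Germ cell genes, many of them silenced by DNA methylation in somatic cells, were lowered in 6 of 29 cases and raised in none (median -0.17). MAGEB2 fell from 2.61, 2.59 and 2.74 to 1.89, 1.71 and 1.95 (-0.80 ± 0.07 SE, adjusted p = 6.11e-10), and BRDT, the testis bromodomain protein, from 2.87, 2.91 and 2.82 to 2.04, 2.20 and 2.13 (-0.74 ± 0.06 SE, adjusted p = 1.65e-10). The piRNA pathway genes TDRD9, TDRD1 and PIWIL2 and the meiotic recombinase DMC1 fell by 0.38 to 0.54. All 6 were lowered in untreated cells too, and 11 members of the list were lowered with the trend removed.

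Genes of the p53 pathway differed by small amounts. Of 44 regulators and arrest targets of p53, 2 were raised and 0 lowered (1 and 0 with the trend removed), with a median of 0.10 and 30 values above 0. Over all genes tested the shares were 6.40% raised and 8.77% lowered. ANXA1 (annexin A1) rose from 6.09, 6.06 and 6.08 to 6.67, 6.63 and 6.65 (0.57 ± 0.02 SE, adjusted p = 2.22e-16), and TRIM22 by 0.67 ± 0.04 (SE, adjusted p = 5.49e-12). With the trend in length and GC content removed the difference of ANXA1 was 0.34 and under 1.3-fold. The arrest genes BTG2, SESN1 and CDKN1A (p21) differed by 0.32 ± 0.04 (SE, adjusted p = 2.61e-07), 0.28 ± 0.02 (SE, adjusted p = 1.67e-11) and 0.20 ± 0.03 (SE, adjusted p = 1.21e-05), and DRAM1 by 0.11: each was higher in all 3 knockdown samples than in any control, but under 1.3-fold. MDM2, the antagonist of p53, differed by 0.12. The study names DNMT3B, ANXA1, FAS, BTG2, SESN1, CDKN1A and DRAM1 from these samples, so their direction is not independent evidence.

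FAS, the death receptor, was raised together with 2 other members of 32 apoptosis genes, and none fell. Of all genes tested 6.40% were raised and 8.77% lowered. With the trend removed 2 of the 32 were raised and 1 lowered. FAS was at 2.79, 2.95 and 2.87 in the controls and 3.6, 3.49 and 3.55 in the knockdown. This was a change of 0.68 ± 0.06 (SE, adjusted p = 2.31e-10) or 1.6-fold, against 0.39 in untreated cells. The difference between these effects was 0.29 ± 0.08 (SE, adjusted p = 0.00517), which did not reach 1.3-fold. The decoy receptor TNFRSF10D rose by 0.54. PMAIP1 (NOXA), a BCL2 antagonist induced by p53, was slightly lower in the knockdown, at 6.71, 6.59 and 6.69 against 6.87, 6.85 and 6.75 (-0.16 ± 0.04 SE, adjusted p = 7.02e-04).

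Genes that handle cisplatin, repair its lesions or act in the cell cycle are set beside the shares of all genes called, 6.40% raised and 8.77% lowered. Of 35 transport and detoxification genes 4 were raised and 0 lowered (4 and 1 with the trend removed): the efflux pump ABCB1 by 0.58 ± 0.12 (SE, adjusted p = 2.16e-04), the organic cation carriers SLC22A2 and SLC22A3 by 0.55 and 0.52, and the glutathione transferase GSTM3 by 0.44. The copper carriers SLC31A1 and ATP7A, which can move the drug, differed by 0.16 and -0.13. Of 50 genes of crosslink, excision and translesion repair 2 were lowered, SLX4 (-0.42) and POLN (-0.38), and the list median was -0.01. Removal of the trend left 2 lowered, but SLX4 was not among them. Of 43 S phase genes 4 were lowered and 1 raised (2 and 0 with the trend removed), and of 40 genes of G2 and mitosis MKI67 (-0.73), CENPF (-0.42) and FOXM1 (-0.38) were lowered and none raised. After the trend was removed 2 of the 40 were lowered, and CENPF and FOXM1 were not called.

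Long genes of chromatin regulation were called mainly within cisplatin. Of 45 remodelers and bromodomain proteins 11 were lowered and 1 raised (median -0.23), against 1 and 1 in untreated cells, and the knockdown effect was lower with cisplatin than without it past the thresholds for 6 and higher for none. EP400 fell from 7.39, 7.42 and 7.45 to 6.77, 6.81 and 6.87 (-0.60 ± 0.02 SE, adjusted p = 7.81e-17), and CHD3, ARID1A, CHD6, CHD2 and CHD4 by 0.45 to 0.58. The study names SMARCA4 as lowered by cisplatin within the knockdown cells, at a lower limit on fold change. That comparison is not reported here. Between knockdown and vector cells with cisplatin, SMARCA4 differed by -0.33 ± 0.02 (SE, adjusted p = 3.80e-14), under 1.3-fold, with no overlap of the groups. Of the 9 partners of KDM6A, the enzymes KMT2D and KMT2C were lowered. KMT2D fell from 7.27, 7.31 and 7.35 to 6.31, 6.41 and 6.47 (-0.91 ± 0.03 SE, adjusted p = 1.68e-17) and KMT2C changed by -0.66 ± 0.03 (SE, adjusted p = 9.18e-15), while their differences in untreated cells were -0.16 and -0.06. These are long transcripts, with a list median of 5687 bases for the remodelers and 20635 and 16860 bases for KMT2D and KMT2C. With the trend in length and GC content removed, 1 remodeler was lowered and 2 were raised, EP400 stood at -0.28, and KMT2D and KMT2C at -0.43 and -0.42, still lowered.

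Signaling lists are given beside the shares of all genes called, 6.40% raised and 8.77% lowered. Of 49 genes of the WNT and FGF pathways 3 were raised and 4 lowered: the ligand WNT16, the WNT antagonist FRZB and the phosphatase DUSP6 rose by 0.90, 0.66 and 0.65, and the ligands FGF1 and FGF17 and the receptors FGFR3 and FZD5 fell by 0.74, 0.65, 0.49 and 0.43. These counts were 4 and 2 with the trend removed, and FGFR3 and FZD5 were not called. Of 43 genes of the NODAL, BMP and TGF-beta pathway 5 were raised and 4 lowered, against 4 and 1 with the trend removed. GREM1, a secreted BMP antagonist, rose from -0.32, -0.27 and -0.28 to 0.79, 0.53 and 0.47 (0.89 ± 0.12 SE, adjusted p = 1.18e-06), and FST, which binds activin, by 0.66. The receptor ACVR2B and the mediators SMAD2 and SMAD6 fell by 0.55, 0.42 and 0.44, and all 3 lost their call with the trend removed. Of 19 integrins 3 were raised, with ITGA4 at 0.75, and 4 lowered, with ITGAL at -0.90, and the counts were the same with the trend removed.

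Imprinted and interferon-stimulated genes held some of the larger single changes. The counts that follow stand beside shares over all genes of 6.40% raised and 8.77% lowered. Of 26 imprinted genes 2 were raised and 6 lowered, against 1 and 3 with the trend removed. PEG3, a paternally expressed zinc finger gene, fell from 7.86, 7.83 and 7.82 to 6.96, 6.93 and 7.07 (-0.85 ± 0.03 SE, adjusted p = 1.23e-17), and the noncoding KCNQ1OT1 and the receptor IGF2R fell by 0.70 and 0.53 with cisplatin, and neither was called without it. IGF2R with the trend removed was at -0.26 and not called. Of 31 interferon-stimulated genes IFIT3 and TRIM22 were raised and 3 were lowered, among them BST2 (tetherin), from 4.56, 4.63 and 4.62 to 3.57, 3.63 and 3.61 (-1.001 ± 0.05 SE, adjusted p = 1.28e-13), and SAMD9 (-0.92). Of 16 antigen presentation genes only TAPBP was called (-0.58). Of 25 AP-1 and immediate early genes 4 were lowered, NR4A1 (-0.78), NR4A3 (-0.61), FOS (-0.41) and FOSB (-0.39), and CCN2 was raised (0.51). These became 3 lowered and 2 raised once the trend was removed, and FOSB was not called.

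For stress and metabolic lists too, the shares of all genes called were 6.40% raised and 8.77% lowered. Of 37 genes of the integrated stress response NUPR1, DDIT4 and CHAC1 were raised by 0.55, 0.40 and 0.39, and none fell. These 3 rises were small, and those of NUPR1 and CHAC1 lost their call when 1 sample was left out. Of 21 NRF2 targets SRXN1 was lowered (-0.39), and of 33 genes of cholesterol and fatty acid synthesis 1 was raised and 3 lowered, FASN by 0.46. With the trend removed SRXN1 was 1 of 2 lowered NRF2 targets, and 1 gene of cholesterol and fatty acid synthesis was raised and 1 lowered, with FASN at -0.10 and not called. Of 44 genes of the KDM, KMT and SETD families KMT2A (-0.68), NSD2 (-0.46) and SETD1B (-0.45) were lowered, and with the trend in length and GC content removed 1 was. Of 32 replication-dependent histone genes, whose short transcripts have a median of 488 bases and lack poly(A) tails, 6 were raised and none lowered. Of 82 cytosolic ribosomal protein genes 2 were raised and none lowered, and 80 had a positive difference (median 0.15), beside a median of -0.11 in untreated cells and of 0.05 within cisplatin with the trend removed, where 1 was raised and 1 lowered.

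The difference between the knockdown effects with and without cisplatin was tested directly. It was positive past the thresholds for 180 genes (1.09%) and negative for 440 (2.67%). Transcript length differed between these sets, with a median of 9326 bases among the genes lower with cisplatin, 1072 bases among those higher and 3192 among the rest. TTN (titin), the longest human coding transcript, was at 4.57, 4.61 and 4.62 in pLKO.1 and 5.50, 5.45 and 5.44 in sh6A+6B without cisplatin, and at 5.55, 5.54 and 5.67 and 4.89, 4.93 and 5.11 with it. The knockdown thus went with a higher level in untreated cells and a lower level in treated cells, a difference of -1.47 ± 0.06 (SE, adjusted p = 1.86e-14). The mucins MUC16, MUC19 and MUC4 and the muscle protein NEB followed with -1.11, -0.93, -0.78 and -0.89. In the other direction the leading genes with a mean log2 CPM of at least 1 were short: DPPA5, a pluripotency-associated RNA-binding protein (0.59 ± 0.07 SE, adjusted p = 1.77e-07), the ribosomal protein RPS29 (0.59 ± 0.08 SE, adjusted p = 1.89e-06), the histone H4C3 (0.58 ± 0.13 SE, adjusted p = 7.93e-04), and the pseudogenes C1DP1, RPS7P1 and RPL39P3, whose reads may belong to their parent genes. Among genes of lower level the histone H3C12 was at 0.85 (adjusted p = 0.0079). Of 82 cytosolic ribosomal protein genes 16 had a positive difference past the thresholds and none a negative one. With the trend removed, 88 genes were positive and 156 negative, and they included 48 of the 155 positive and 85 of the 368 negative genes of known length.

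The inhibitor GSK-J4, a small molecule designed against KDM6A and KDM6B, was given to 2102EP-C1 cells in another experiment of the series (pretreatment with 1 µM for 3 days, then the same dose of cisplatin, 3 samples against 3 with cisplatin alone). These values come from a table normalized separately, and they are set beside the knockdown values without a test. GSK-J4 within cisplatin raised 1792 genes (10.5%) and lowered 1503 (8.82%) of 17035. Among 16104 genes in both tables, 196 were raised by both, which is 20.7% of those raised by the knockdown and 11.7% of those raised by GSK-J4, and 288 were lowered by both (20.4% and 20.2%). In addition, 97 were raised by the knockdown and lowered by GSK-J4, and 99 the reverse. DNMT3B was lowered by GSK-J4 (-0.62, knockdown -0.47), and UHRF1 likewise (-0.71, knockdown -0.64). FAS and ANXA1 were raised by 1.28 and 1.68, and BTG2 and CDKN1A, which passed only the p limit in the knockdown, by 1.61 and 0.88. CDH6 and HPGD were raised by 0.71 and 0.69. PXDN had a difference of -0.10, not past the thresholds, and 1 HOX gene of the 12 measured there was raised and 3 were lowered. Of the p53 list 24 were raised and 1 lowered by GSK-J4 (2 and 0 by the knockdown), and of 37 genes of the integrated stress response 31 were raised and none lowered (3 and 0 by the knockdown). The hypoxia list, with 8 members raised by the knockdown, had 5 raised and 15 lowered by GSK-J4. Of the target transcripts, KDM6A differed by -0.01, and KDM6B was raised by 0.73.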

How the data were processed

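RNA-seq of 2102EP-C1 cells was analysed from the deposited table of log2 CPM values. Per the study's methods and the submitters' processing notes, the authors trimmed stranded mRNA reads with Trimmomatic, aligned them to GRCh38.p14 with STAR, counted them with featureCounts, dropped genes unless 2 or more samples exceeded 0.5 CPM, scaled by TMM and tested with limma; versions were not given in the sources used here. The deposited log2 values returned whole read counts (100% of values under 50 reads lay within 0.05 of a whole number) with a constant of 3 counts added, which gave the depth of each sample, a median of 88.4 M reads. Symbols were matched for 16443 of 16459 genes.

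Here limma 3.58.1 (R 4.3.3) was fitted to log2 CPM of the 12 samples of the table with 4 group means, an intensity trend and two-sided moderated tests, and p-values were adjusted by Benjamini-Hochberg over all genes. On simulated data with 200 changed genes of 16459, the test of the knockdown within cisplatin recovered 97.5% with 3 false calls. Whether these rates hold for the genes called here was not tested. The GSK-J4 table (17035 genes) was fitted the same way on its own. Named genes were the targets and genes the study names, the 12 largest called rises and falls with a mean log2 CPM of at least 1 and groups that did not overlap, up to 4 called members of each of 32 gene lists in each direction, all PRC2 and DNA methylation genes, and the 6 largest differences between conditions in each direction. Further HOX, developmental, matrix, cadherin, hypoxia, chromatin and germ cell genes, and SOX2, CDH1, EPCAM, HIF1A, MDM2, SLC31A1 and ATP7A, were named as members of their lists after their values were seen. The comparison and the lists were chosen with earlier results of these data known. Transcript length and GC content came from GENCODE release 44 for 15220 genes (92.5%), promoters from RefSeq. BMI1, Y-linked genes and some other genes are not reported here. Alternatives were other normalizations, filters, variance models, thresholds, a replicate block, samples left out in turn, and a trend in length and GC content removed per sample with natural splines of 4 degrees of freedom.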

Additional observations from a re-analysis of the deposited data

Results flagged for a closer look

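The knockdown effect differed between cells with and without cisplatin, by the test of that difference in limma (fold change over 1.3, adjusted p under 0.05), for 180 genes on which it was higher with cisplatin and for 440 on which it was lower. Values below are the log2 knockdown effect with cisplatin minus that without it. Long transcripts with large differences were TTN (-1.47), MUC16 (-1.11), MUC19 (-0.93), NEB (-0.89), MUC4 (-0.78) and AHNAK (-0.77). Chromatin genes lower with cisplatin were KMT2D (-0.75), KMT2C (-0.61), KMT2A (-0.56), EP400 (-0.52), AEBP2 (-0.48), CHD3 (-0.47), LCOR (-0.43), SETD1B (-0.40), TET3 (-0.39), ARID1A (-0.39) and CHD7 (-0.38). Adhesion and matrix genes were PCDHGA9 (-0.79), PCDHGC5 (-0.63), PCDHB13 (-0.59), PCDHGB3 (-0.41) and COL11A1 (-0.52). The remainder were the imprinted KCNQ1OT1 (-0.70) and IGF2R (-0.49), the mitotic genes MKI67 (-0.54) and CENPF (-0.43), and TRIM71 (-0.39), a factor of pluripotent cells. With the trend in transcript length and GC content removed, TTN, MUC16, MUC19, NEB, MUC4, AHNAK, AEBP2, PCDHGA9, PCDHGC5, PCDHB13 and KCNQ1OT1 still passed both thresholds and the others named so far did not, CHD7 at -0.14 and COL11A1 at -0.37 among them.

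Genes on which the knockdown effect was higher with cisplatin were the histones H3C12 (0.85) and H4C3 (0.58), the ribosomal protein genes RPS29 (0.59), RPS21 (0.45) and RPL27A (0.41), DPPA5 (0.59), and the pseudogenes C1DP1 (0.62), RPS7P1 (0.61) and RPL39P3 (0.59). With the same trend removed RPS21 was not called and the others were. Groups of 3 samples are too small for a test of single outlying samples, and none was run.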

How the results depend on the processing

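Directions of uncalled named genes near 0, such as RBBP4 (-0.0015), are not considered here. Named genes called within cisplatin kept their direction in all alternatives run, except for TTN. Its difference within cisplatin went from -0.61 to 0.036 with the trend in length and GC content removed. That alternative was chosen after seeing the data and moved 43 of 193 named genes under the thresholds and 2, PMAIP1 and DNMT3L, past them. It tested the 15220 genes of known length and left 872 genes lowered within cisplatin, and 88 genes with a higher and 156 with a lower knockdown effect with cisplatin. Asking for a log2 CPM over 1 in every sample, which tests fewer genes, gave 472 raised and 835 lowered genes within cisplatin, 490 and 417 in untreated cells, 98 with a higher effect with cisplatin, and 1066 and 896 with GSK-J4. With no limit on the fold change there were 5083 and 5060 within cisplatin, 4211 and 4474 in untreated cells, 2830 and 2955 for the difference between them, and 4347 and 4065 with GSK-J4. An adjusted p under 0.001 with a fold change over 1.2 gave 455 and 746 for the difference. The replicate numbers paired the samples at most in part. Correlations of same-numbered samples of the groups compared were 0.19, 0.058 and -0.051. Those of sh6A+6B with sh6A+6B Cisplatin were 0.34, 0.34 and 0.070, beside -0.37 to 0.071 for unlike numbers. The fit with a replicate block called 1056 raised and 1449 lowered genes and changed no named call. For the difference between conditions it gave 188 and 448. With library sizes alone 1146 were raised and 1324 lowered. Leaving out each sample in turn gave 991 to 1063 raised and 1306 to 1497 lowered genes within cisplatin, 989 to 1089 and 847 to 998 in untreated cells, 156 to 210 and 411 to 488 for the difference. Among named genes it moved 4 to 11 calls at a time. Of these, POLN stood at -0.21 without pLKO.1 Cisplatin replicate 3, ITGA4 at 0.48 and POU3F2 at -0.32 without sh6A+6B Cisplatin replicate 3, NUPR1 at 0.44 without pLKO.1 Cisplatin replicate 1, CHAC1 at 0.32 and FOSB at -0.34 without pLKO.1 Cisplatin replicate 2, and FOXM1 at -0.36, SRXN1 at -0.36 and CHD7 at 0.35 without sh6A+6B Cisplatin replicate 1. The cause of these moves was not tested. Summed marker levels in controls and knockdown with cisplatin were 61.8 to 62.9 and 67.5 to 68.1 CPM for 5 yolk sac markers, 150.8 to 153.5 and 140.1 to 145.0 for 6 of trophoblast, 148.6 to 149.9 and 142.6 to 144.0 for 7 of germ cells, and 219.1 to 222.9 and 237.4 to 245.3 for 8 of mesoderm. Knockdown and empty vector cells are 1 derivation each, so that hairpin, selection and derivation cannot be told apart.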

Other observations

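Raised genes were unevenly placed along chromosome 13. Of 107 genes between 40 and 80 Mb, 25 were raised and 2 lowered within cisplatin, and 91 (85.0%) had a positive difference, with a median of 0.24 on the log2 scale. In untreated cells the median of the same genes was 0.22, with GSK-J4 within cisplatin it was 0.07, and within cisplatin with the trend in length and GC content removed 0.16. Of the 95 genes before 40 Mb, 10 were raised and 1 lowered within cisplatin, with a median of 0.02. Of the 81 genes after 80 Mb, SOX21 among them, 14 were raised and 4 lowered, with a median of 0.04. Over all genes tested 6.40% were raised and 8.77% lowered.

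On chromosome 19, 15 of 1144 genes were raised (1.31%) and 149 lowered (13.02%) within cisplatin, with a median difference of -0.07, or -0.02 with the trend in length and GC content removed. Over all genes tested 6.40% were raised and 8.77% lowered within cisplatin. The lowered share was near that of chromosome 19 on chromosomes 17 (12.99%), 22 (12.1%) and 16 (11.74%), where 3.91%, 5.65% and 3.54% were raised. In untreated cells 0.96% of the chromosome 19 genes were raised and 10.2% lowered. The 19 genes of the mitochondrial chromosome had a median difference of -0.02 within cisplatin, of 0.36 in untreated cells, where 42.1% were raised, and of 0.66 with GSK-J4 within cisplatin.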
